A study of Homo sapiens with 2 samples.

Results

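The lncRNAs MALAT1 and NEAT1 were followed through 10 array probes: 4 assigned to MALAT1, 1 to LOC100507645 and 5 to NEAT1. The array held 77162 non-control probes in all, printed as 175556 spots. The members were chosen by their measured values and gene symbols, since the published tables that name them list probes already called changed between the same 2 arrays. Every difference given for them is therefore a description. LNCaP cells, a long-established line from human prostate cancer, carry the androgen receptor and respond to androgen. The cells were kept for 72 h in phenol-red-free medium with 5% charcoal-stripped serum according to the labels, which removes steroid hormones. The published methods state another serum percentage. The 2 h cells were then given 10 nM dihydrotestosterone (DHT), a potent natural androgen, and collected after that time. In the study the 0 h cells were the control, standing for the state before DHT acted, although the labels list 10 nM for both. Both groups shared the starvation. No vehicle-treated sample at 2 h was analysed here, so DHT and the time in culture cannot be told apart. One single-colour array of total RNA, labelled as cRNA with cyanine-3, stood for each time point, so no test was possible and no p-value is given. The SD printed with each value is the spread of 3 spots of the same oligonucleotide on 1 array (n = 3 spots), which is technical. Both arrays carried the same scan date. The scanner files give probe names without genes, so the symbols are those of the published tables and marker genes of the line were not analysed here.

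MALAT1 is an abundant nuclear lncRNA that collects in nuclear speckles, bodies rich in splicing factors. NEAT1 is the scaffold RNA of paraspeckles, separate nuclear bodies that hold RNA-binding proteins such as NONO and SFPQ. The genes are neighbours on chromosome 11, and both RNAs are retained in the nucleus. A bulk RNA signal cannot separate fewer cells that express a transcript from less transcript per cell.

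The sequences of the probes that carry the main values are given first, 5′ to 3′, as listed in the scanner files. Each is 60 bases long, and capitals mark a stretch at its end that it shares with another probe of the array. For MALAT1, whose symbol is matched as an lncRNA on chromosome 11 in the RefSeq gene table, the 4 member probes were these.
A_21_P0010980: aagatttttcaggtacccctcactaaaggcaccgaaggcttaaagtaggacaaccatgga
A_21_P0010981: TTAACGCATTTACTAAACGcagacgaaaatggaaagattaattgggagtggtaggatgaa
A_21_P0010982: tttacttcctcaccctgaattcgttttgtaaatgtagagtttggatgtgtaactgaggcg
oebiotech_17693: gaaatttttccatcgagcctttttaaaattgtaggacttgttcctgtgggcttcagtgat

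The 5 NEAT1 member probes were these, and A_21_P0011024 ended in the 19 bases with which A_19_P00318409 began.
A_19_P00321332: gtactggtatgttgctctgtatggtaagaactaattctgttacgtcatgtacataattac
A_19_P00318409: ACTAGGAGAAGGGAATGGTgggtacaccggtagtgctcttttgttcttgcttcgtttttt
oebiotech_17448: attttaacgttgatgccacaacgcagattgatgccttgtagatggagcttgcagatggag
A_21_P0011024: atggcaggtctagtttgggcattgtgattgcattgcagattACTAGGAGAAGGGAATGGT
oebiotech_03110: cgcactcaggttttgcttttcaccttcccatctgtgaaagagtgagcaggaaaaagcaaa

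After quantile normalization, 9 of the 10 members were at least 2-fold higher at 2 h than at 0 h. The other, oebiotech_03110, counted as 1 member at least 2-fold lower in these values, by a difference within its spot SD that turned positive with no scaling. Of 32423 probes that passed the detection rule on either array, the signal of 27.9% was higher by 2-fold or more, and that of 13.1% lower by as much. The scaling sets this balance: it was 76.6% against 0.157% with the spike-ins, 64.9% against 0.426% with no scaling, and 18.97% against 24.95% with the arrays aligned at the 75th percentile of every spot. A probe counted as detected when at least 0.5 of its spots were well above background on that array. By this rule 8 members were detected on both arrays, and the NEAT1 probes A_19_P00321332 and oebiotech_03110 at 2 h only. Nothing is read from the share of members, because the 2 h against 0 h contrast chose them. At all 27 printed positions of the 9 higher members the processed signal was brighter at 2 h, and in each of the 9 the dimmest spot at 2 h lay above the brightest at 0 h.

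All 4 MALAT1 members were higher at 2 h, by between 18.9-fold and 48.8-fold after quantile normalization. Their log2 differences, 4.24 to 5.61 there, were 3.36 to 4.95 when aligned at the 75th percentile of every spot and 5.41 to 7.01 with the spike-ins. For A_21_P0010982 the scanner's background-subtracted signals were 126, 136 and 122 at 0 h and 11246, 13092 and 13079.6 at 2 h. After quantile normalization these became 7.88 ± 0.07 and 13.49 ± 0.14 on the log2 scale (SD, n = 3 spots), a difference of 5.61. The 3 spots differed little on either array, and the time points lay far apart.
The signals of oebiotech_17693 were 485, 441 and 438 at 0 h, and 32897, 30320.0 and 36359.9 at 2 h. Its log2 level went from 9.51 ± 0.07 to 14.99 ± 0.16 (SD, n = 3 spots), 44.6-fold. No non-control spot of either array was saturated, this bright probe included.
A_21_P0010981 gave 290.0, 263 and 271 at 0 h against 14667, 14634 and 14472 at 2 h. Its log2 level went from 8.84 ± 0.07 to 13.72 ± 0.01 (SD, n = 3 spots), 29.3-fold. A_21_P0010980 had the smallest difference of the 4, with 574, 526 and 477 at 0 h and 16965, 17893 and 15677 at 2 h. Its normalized values were 9.70 ± 0.12 and 13.94 ± 0.10 (SD, n = 3 spots), 18.9-fold apart. The differences of the 4 probes ranged from 4.24 to 5.61 with an SD of 0.63 over probes, whereas the spot SD of each difference was at most 0.18. The probes of this one gene thus differed in their change by more than their spots did.

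LOC100507645 is an uncharacterized locus symbol that the study places on chromosome 11, and it had no entry in the RefSeq gene table used here. Its member probe A_19_P00331618 gave 241, 205 and 229 at 0 h and 18259.6, 18845 and 19429.7 at 2 h. The normalized log2 levels were 8.59 ± 0.11 and 14.11 ± 0.04 (SD, n = 3 spots), 45.9-fold apart. Over the settings tried its log2 difference ran from 4.74 to 6.80. An unnamed probe, oebiotech_24626, shared 58 of its 60 bases on the same strand and so served as a near repeat of the same measurement. It went from 8.58 ± 0.07 to 14.02 ± 0.11 (SD, n = 3 spots), a log2 difference of 5.44 beside 5.52 for A_19_P00331618. The gap between the pair was smaller than the spot SD of either difference, 0.11 and 0.13. In the pair, capitals mark the shared stretch.
A_19_P00331618: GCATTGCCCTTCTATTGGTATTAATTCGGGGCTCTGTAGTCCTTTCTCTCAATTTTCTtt
oebiotech_24626: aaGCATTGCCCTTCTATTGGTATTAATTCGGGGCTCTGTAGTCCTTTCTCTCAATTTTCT

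One LOC100507645 probe could be linked to a MALAT1 probe, but only through short overlaps between probes, with no genome to place them. The second LOC100507645 probe in the published tables, A_19_P00319476, could be joined in reverse complement to the MALAT1 member A_21_P0010981 through 1 unnamed probe, oebiotech_25862, with overlaps of 17 and 19 bases. Another unnamed probe, oebiotech_24628, fell inside the joined stretch on the strand of A_19_P00319476. It shared 34 bases with A_19_P00319476 and, in reverse complement, 43 with oebiotech_25862. The link to A_21_P0010981 rested on the 19 bases alone. The stretch is 144 bases long. It is written on the strand of the MALAT1 probe, which fills bases 85 to 144 in capitals. The reverse complement of A_19_P00319476 fills bases 1 to 60, oebiotech_25862 bases 44 to 103, and the reverse complement of oebiotech_24628 bases 27 to 86.
joined stretch: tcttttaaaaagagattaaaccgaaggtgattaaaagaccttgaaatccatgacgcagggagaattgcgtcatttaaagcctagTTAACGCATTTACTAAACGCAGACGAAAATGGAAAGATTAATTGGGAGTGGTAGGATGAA

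Probes on both strands of that stretch were brighter at 2 h. On the MALAT1 strand, oebiotech_25862 went from 8.54 ± 0.10 to 13.56 ± 0.03, 32.6-fold, beside the 29.3-fold of A_21_P0010981. On the opposite strand, A_19_P00319476 gave 194, 195 and 166 at 0 h and 11999.8, 12942 and 11220.0 at 2 h. That is 8.33 ± 0.12 against 13.43 ± 0.11, 34.3-fold. oebiotech_24628 went from 7.29 ± 0.14 to 12.30 ± 0.05, 32.3-fold (SD over 3 spots in each case). The log2 differences of the 4 probes along the 144 bases were between 4.88 and 5.10 after quantile normalization. They were between 5.73 and 6.20 with no scaling, and between 4.63 and 4.86 in the authors' values. They therefore lay closer together than the differences of the 4 MALAT1 members. Whether the probes of one strand also captured label from the other was not tested. The RefSeq gene table lists TALAM1, an antisense RNA, across MALAT1. The links of 17 and 19 bases were taken up after the values had been seen, and a shared end of this length does not by itself place probes side by side. The member A_19_P00331618 was not reached by this chain.

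For NEAT1, 4 of the 5 members were higher at 2 h. The 3 that were detected on both arrays moved almost equally, by 4.20, 4.34 and 4.34 on the log2 scale. These became 3.68 to 3.98 after normexp and 5.87 to 6.05 with the spike-ins. oebiotech_17448 gave 134, 119 and 122 at 0 h and 5322, 5627 and 5508 at 2 h. Its normalized levels were 7.84 ± 0.08 and 12.18 ± 0.05 (SD, n = 3 spots), 20.2-fold apart.
The overlapping pair behaved alike: A_19_P00318409 gave 72.8, 57.4 and 80.7 at 0 h and 3288, 3583 and 3543 at 2 h. Its log2 level went from 7.11 ± 0.23 to 11.45 ± 0.08 (SD, n = 3 spots). A_21_P0011024 gave 60.04, 72.6 and 77.1 at 0 h against 3291, 3286 and 2973 at 2 h. That is 7.11 ± 0.17 and 11.31 ± 0.09 (SD, n = 3 spots), or 18.4-fold. The pair shares 19 bases, so its probes are not independent of each other in sequence. The SD of the 3 differences over probes was 0.08, below the spot SD of each one.
A_19_P00321332 gave 19.3, 19.4 and 11.1 at 0 h, none of them well above background, and 879, 973 and 955 at 2 h. The lowest level of any detected probe on the 0 h array was a log2 value of 5.65. Against that level, the 2 h level of A_19_P00321332, 9.40 ± 0.08 (SD, n = 3 spots), was 13.4-fold higher after quantile normalization. This bound is not a guaranteed minimum, since the NEAT1 probe oebiotech_16404 went undetected at 0 h with a log2 value of 6.59. The bound was worked out after quantile normalization only. After normexp the measured signals themselves differed by 2.78 on the log2 scale, below the 3.75 of the bound.

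The fifth NEAT1 member, oebiotech_03110, went the other way in the normalized values, but from dim spots. Its signals were 44.0, 28.1 and 99.9 at 0 h and 96.6, 37.5 and 89.8 at 2 h. Only the brightest spot at 0 h was well above background, and 2 of the 3 at 2 h. The groups overlapped, and before scaling 2 of the 3 positions were brighter at 2 h. Quantile normalization gave 6.64 ± 0.87 and 5.53 ± 0.72 (SD, n = 3 spots), so the difference of -1.11 was no larger than its spot SD of 1.13. With no scaling between arrays the difference was 0.47. No fold can be given for this probe, since the undetected side sets a bound under 1. Of the NEAT1 members, 4 were thus far brighter at 2 h, and 1 was near background at both times and showed no settled direction.

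Between the genes, MALAT1 had the larger median difference over the members detected on both arrays, 5.18 for its 4 probes against 4.34 for 3 NEAT1 probes on the log2 scale, a gap of 0.84. With the further MALAT1 probe detected on both arrays, A_24_P873659 at 3.65, which lay below all 3 NEAT1 probes, the MALAT1 median was 4.88. The gap between the members' medians was 0.44 under the single shifts of the arrays. These move every probe equally, so the gap and the order of probes are the same under all of them by construction. After normexp background correction the gap was 1.16. A_21_P0010980, at 4.24, lay within the range of the 3 NEAT1 members detected on both arrays, and the other 3 MALAT1 members lay above that range. Under the single shifts and in the authors' values A_21_P0010980 fell below all 3 of them. After normexp background correction A_21_P0010980 lay above all 3, at 4.12 against 3.98 for the highest of them. The NEAT1 probe A_19_P00321332 has only a bound and takes no place in this order. With 1 array per time point the difference between the genes was not tested.

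In order of their log2 difference among the 19304 probes detected on both arrays, the 8 members detected there took places 2, 3, 4, 11, 15, 16, 20 and 22. A_21_P0010982 was at place 2, the LOC100507645 probe A_19_P00331618 at 3 and oebiotech_17693 at 4. Of those 19304 probes, 12.0% were higher at 2 h by 2-fold or more, and 23 by 16-fold or more. Those 23 comprised the 8 members, the second LOC100507645 probe, 3 unnamed probes that overlap probes of these genes end to end (oebiotech_24626, oebiotech_24628 and oebiotech_25862), and 11 others. One of the 11, A_21_P0014903, shared 18 bases with A_19_P00331618 on the same strand and was 28.0-fold brighter at 2 h. It too was picked out after the values had been seen. First place went to oebiotech_25863 at 49.8-fold, whose gene the files do not name and which shared no stretch of 16 or more bases with a member. After quantile normalization the smallest value among the 9 higher members was the bound of 13.4-fold, and over all the settings tried the smallest log2 difference among them was 2.78. The normalized difference of oebiotech_03110 lay closer to the lower limit than its own spot SD.

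The published tables give these symbols to 8 more probes, and all 8 were brighter at 2 h, though 6 were detected there only. The symbols come from lists of probes called changed between these arrays, so this is no independent evidence of a change. Among the MALAT1 probes, A_24_P873659 was detected on both arrays and gave 263, 290.4 and 257 at 0 h against 6029.99, 7128 and 6337 at 2 h. Its difference of 3.65 (12.5-fold) was below those of all 4 members. The last 2 MALAT1 probes were barely detected at 2 h. A_19_P00805006 gave 11.1, 9.53 and 10.2 at 0 h and 62.6, 59.6 and 64.5 at 2 h, and A_19_P00809614 gave 9.95, 17.6 and 9.81 against 64.2, 74.8 and 58.8. Their normalized levels at 2 h, 5.38 and 5.45, did not exceed the lowest detected level of the 0 h array, so no fold is given. Probes under the MALAT1 symbol thus ranged from near background at both times to 48.8-fold.

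A_19_P00809614 ended in the same 17 bases as an unnamed probe, oebiotech_25861, while the other 43 bases differed. The pair was picked out after the values had been seen. oebiotech_25861 gave 871, 945 and 811 at 0 h and 33819.6, 35786 and 33754 at 2 h. It was detected on both arrays and 26.3-fold brighter at 2 h, whereas A_19_P00809614 was detected at 2 h only and has no fold. Capitals mark the shared end.
A_19_P00809614: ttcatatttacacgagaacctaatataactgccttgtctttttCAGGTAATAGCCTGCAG
oebiotech_25861: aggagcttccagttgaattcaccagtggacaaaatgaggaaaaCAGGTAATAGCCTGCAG

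The 4 further NEAT1 probes were undetected at 0 h and are given by their bounds after quantile normalization. A_19_P00321333 was 16.4-fold higher at 2 h, with signals of 45.9, 38.3 and 38.8 at 0 h and 1688, 1942 and 1858 at 2 h. oebiotech_16404 was 14.7-fold higher, A_33_P3263538 9.79-fold and A_21_P0010978 3.83-fold. For A_21_P0010978 the bound uses the lowest detected level at 0 h, and for the others their own undetected signal. None is a guaranteed minimum. These bounds hold for that normalization only. In the authors' values A_19_P00321333, oebiotech_16404 and A_33_P3263538 differed by 3.97, 3.81 and 3.01 on the log2 scale. Their bounds on that scale were higher, at 4.03, 3.87 and 3.29. A_21_P0010978 differed by 2.33 in the authors' values, above its bound of 1.94. For A_33_P3263538 one spot at 0 h carried an outlier flag and was left out (n = 2 spots). The normalized log2 difference at its position was 2.64, against 3.25 and 3.36 at the others. With these, 8 of the 9 NEAT1 probes had a 2 h level at least 2-fold above either their own 0 h level or its bound. With lower bounds, 15.0% of all analysed probes were at least 2-fold higher. The NEAT1 symbols come from lists of probes called changed, so nothing is read from the count beside that share.

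Several technical measures differed between the arrays along with these results. The share of non-control spots well above background was 21.9% on the 0 h array and 37.4% on the 2 h array. The median local background was 56 at 0 h and 72 at 2 h. Over the member spots the local background ran from 44 to 68 at 0 h and from 68 to 77 at 2 h. None of the 30 member spots had an outlier flag on either array, and they lay in array rows 12 to 1061. The 5 spike-in probes above background on both arrays fell by 0.41 (median, log2, unscaled), within -0.53 to -0.16. The array's own GAPDH control probes, which report a glycolytic enzyme, differed by 0.19 at the 5′ end and 0.05 at the 3′ end on the same scale. Its PGK1 control probes, for another glycolytic enzyme, differed by 0.63 and 0.58. On the same unscaled values the 9 higher members differed by 5.00 to 6.60. The part of these differences between arrays in the members' values was not tested.

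Base composition also moved with the change. The members held 35% to 45% G and C, with a median of 42.5%, against 41.7% over all probes. Among probes detected on both arrays, those with a GC content in the members' range had a median log2 difference of -0.01, and 16.8% of the 12146 were at least 2-fold higher. The 7071 probes with a higher GC content had a median of -0.55, 3.54% were at least 2-fold higher, and 0 were at least 16-fold higher. All 23 probes with a difference of at least 16-fold fell in the members' GC range, where the share was 0.189%. Of the 23, 8 are members, which set that range and so fall in it by construction. A further 1 is another probe of these genes, 3 are linked to them by sequence, and 11 are neither. The part of base composition in the members' values was not tested.

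The RefSeq promoter table gave 2 windows for MALAT1, each running from 250 bases before to 50 after a transcript start (GRCh38.p14). None was given for NEAT1. Both were searched for TGTTCT, the half-site of the hormone response element that the androgen receptor recognises, and its reverse complement AGAACA. The window at chr11:65497488-65497787, plus strand, held neither. The window at chr11:65498795-65499094, plus strand, held TGTTCT once, in capitals below. Of the 35116 promoter windows in the table, 14.8% held it on either strand, so 1 match in 2 windows is not unusual. A match is a description of the letters and not of binding.
MALAT1 promoter window: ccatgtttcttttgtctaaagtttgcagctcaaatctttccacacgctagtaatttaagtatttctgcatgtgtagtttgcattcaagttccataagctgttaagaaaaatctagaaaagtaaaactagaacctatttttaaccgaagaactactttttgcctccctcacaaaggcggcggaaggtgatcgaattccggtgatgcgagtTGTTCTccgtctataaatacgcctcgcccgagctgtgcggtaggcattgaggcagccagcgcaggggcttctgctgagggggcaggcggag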

How the data were processed

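Total RNA from LNCaP cells at each time point was hybridised by the authors to 1 single-colour Agilent array. Per the file headers and the submitters' processing notes, the deposited intensity values come from Agilent Feature Extraction 10.7.1.1, which subtracts background; the design was annotated on hg19. The authors also deposited a log2 table of processed values per probe, used only as an alternative. Here the non-control processed signals were quantile-normalized in Python 3.11.15, spots with an outlier flag were dropped, and log2 values were averaged per probe. The result matched limma 3.58.1 (R 4.3.3). Probes needed at least 0.5 of their spots well above background on 1 array. Where 1 array missed a probe, the higher of its own signal and the lowest detected level there replaced it (the bounds and lower bounds given here). Undetected probes could lie above that lowest level, so such a bound is not a guaranteed minimum. The steps were tested on simulated data, where 200 of 200 changed probes passed 2-fold in the right direction and 2 of 19239 unchanged probes passed it in either direction. These counts check the steps and give no error rate for these unreplicated arrays.

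Members and lists were chosen with earlier results of these data known. The rule named the members, other probes of their symbols and probes sharing at least 20 bases with a member. oebiotech_24628, oebiotech_25861, oebiotech_25862, oebiotech_25863 and A_21_P0014903 fall outside it and were chosen after their values were seen. The rule's nearest probes of other genes are not given, since levels of different probes are not comparable. Pathway lists, androgen targets and cell type markers were not analysed here, because the files name no genes. An alternative value counted as moved when it left the spot SD of the difference, and a count or percentage when it changed by over 1.5 times.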

Additional observations from a re-analysis of the deposited data

How the results depend on the processing

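The 9 higher members stayed at least 2-fold higher under all 8 alternative treatments of the values, by detection in any spot, at a 3-fold limit and with lower bounds. Requiring detection on both arrays left 8. Some of these settings could not change the count. No member spot had an outlier flag to keep, and detection in any spot only loosens the rule. The members were taken from probes that the study had called changed, so the authors' values are no separate check. The MALAT1 median log2 difference was 4.86 when arrays were aligned at the 75th percentile of spots above background on both, 6.37 when aligned at the spike-ins, 5.96 with no scaling, 4.31 when aligned at that percentile of every spot, 4.87 after normexp correction and 4.88 in the authors' values. The NEAT1 median, over the measured signals of all 5 members, moved from 4.34 to 5.92 with the spike-ins, 5.52 with no scaling, 3.87 with the percentile of all spots and 3.68 after normexp. The share of analysed probes at least 2-fold higher was 76.6% with the spike-ins, 64.9% with no scaling, 9.90% after normexp, 12.0% among probes detected on both arrays, 16.8% at 3-fold and 15.0% with lower bounds, an alternative chosen after seeing the data.

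oebiotech_03110 turned to 0.87 with the spike-ins and 0.47 with no scaling. The count of members at least 2-fold lower was 0 under those settings, the percentile of spots above background on both arrays, normexp, the median of all spots, detection on both arrays, the 3-fold limit and lower bounds. Where a lower bound, a higher limit or detection on both arrays was used, the fall follows from its construction; otherwise the cause was not tested. No paired analysis was possible because each time point has 1 array. The number of arrays limits the precision.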
